A study of Homo sapiens with 11 samples.

Results

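The insulin-like growth factor (IGF) axis is described here by 10 genes, chosen by name from the 23609 gene symbols measured: the ligand IGF2, the receptors IGF1R, IGF2R and INSR, and the binding proteins IGFBP1, IGFBP2, IGFBP3, IGFBP4, IGFBP6 and IGFBP7. The genes were picked for their roles with earlier results of these libraries known, among them the higher IGF2 level after 2 weeks of exposure, so that difference is given as a description without a test. A549 cells, a human lung adenocarcinoma line with alveolar epithelial features, were cultured with cigarette smoke condensate (CSC), the tar fraction trapped from smoke, at a labelled dose of 20 µM, or with its solvent dimethyl sulfoxide (DMSO). Total RNA was depleted of ribosomal RNA and sequenced from 3 libraries of CSC at 48 hours, 2 of DMSO at 48 hours, 3 of CSC at 2 weeks and 3 of DMSO at 2 weeks, 11 in all. All libraries come from 1 cell line with no genetic change in the labels. Nothing in the labels ties replicates to separate cultures, and p-values then describe library-to-library spread that may be technical.

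IGF2 is a secreted peptide that signals through the receptor tyrosine kinase IGF1R and through an isoform of the insulin receptor INSR, while IGF2R, also the cation-independent mannose 6-phosphate receptor, takes IGF2 into the cell for breakdown. Binding proteins hold IGFs outside the cell, prolong their life and limit or deliver them to receptors, and proteases such as PAPPA release the ligand again. In the lung the axis acts in growth and repair, and many lung cancer lines use it for proliferation and survival.

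The values are FPKM (fragments counted for a transcript, scaled to its length and to the size of the library), a level per transcript length that can be compared between genes. They summed to between 338507 and 484053 per library, and 11742 to 12051 genes reached 1 FPKM. Read numbers were not used here, and the widths of the deposited bounds gave relative depths of 1 to 1.36, except for 2.65 in CSC 2 weeks replicate 2. Epithelial markers were all present, with summed levels of 2129 to 2445 FPKM in CSC 48 hours, 3019 to 3081 in DMSO 48 hours, 2935 to 4027 in CSC 2 weeks and 4270 to 4915 in DMSO 2 weeks. Of 8 alveolar type II markers only ABCA3 reached 1 FPKM, and SFTPC stayed at or below 0.157 FPKM, so the defining surfactant genes were near 0 in these cells. Of 7 fibroblast markers only COL1A1 reached 1 FPKM, COL1A2 and DCN were listed at 0 in all libraries, and of 6 leukocyte markers CD68, CD14 and LYZ reached 1 FPKM (at most 7.24, 3.76 and 1.36 FPKM), while the pan-leukocyte gene PTPRC stayed at or below 0.0282 FPKM. In bulk RNA, fewer cells with a transcript and less of it per cell cannot be told apart.

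Every difference below is a log2 change of FPKM + 0.5, CSC minus DMSO or 2 weeks minus 48 hours, with its standard error from limma fitted to all 11 libraries. The fit covered the 12506 genes with at least 1 FPKM in at least 2 libraries, all 10 members among them. A gene was called where the Benjamini-Hochberg adjusted p over those genes was under 0.05. Where groups are said to be apart or not to overlap, this describes the few libraries. How many of all tested genes lie apart was not counted, so it is no support for a change that did not pass. IGF2 was under 1 FPKM in both DMSO 48 hours libraries and over it in the other libraries. Since the members were picked with results of these libraries in view, their adjusted p-values describe these data and are no independent evidence.

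At 48 hours 0 members were called higher and 1 was called lower in CSC, where 0.104% of all tested genes were called higher and 0.184% lower, and 6 of the 10 had an unadjusted p under 0.05, as had 1062 of the 12506 genes. At 2 weeks, IGF2 left aside, 1 of the other 9 members was called higher and 2 lower, where 3.01% of all tested genes were called higher and 2.4% lower. Those shares rest on 376 and 300 genes, and leaving out any 1 of the 2 weeks libraries moved both counts by over 1.5 times, to between 73 higher without DMSO replicate 3 and 1310 higher without CSC replicate 2, and between 132 lower without DMSO replicate 1 and 534 lower without CSC replicate 2. The median log2 change of all 10 members, IGF2 included, was -0.30 at 48 hours, against 0.00 over all tested genes, and -0.15 at 2 weeks, against 0.09. The genes called were IGFBP3, lower in CSC at both durations, and at 2 weeks IGFBP7, lower, with IGFBP6, higher.

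**Figure D1:**
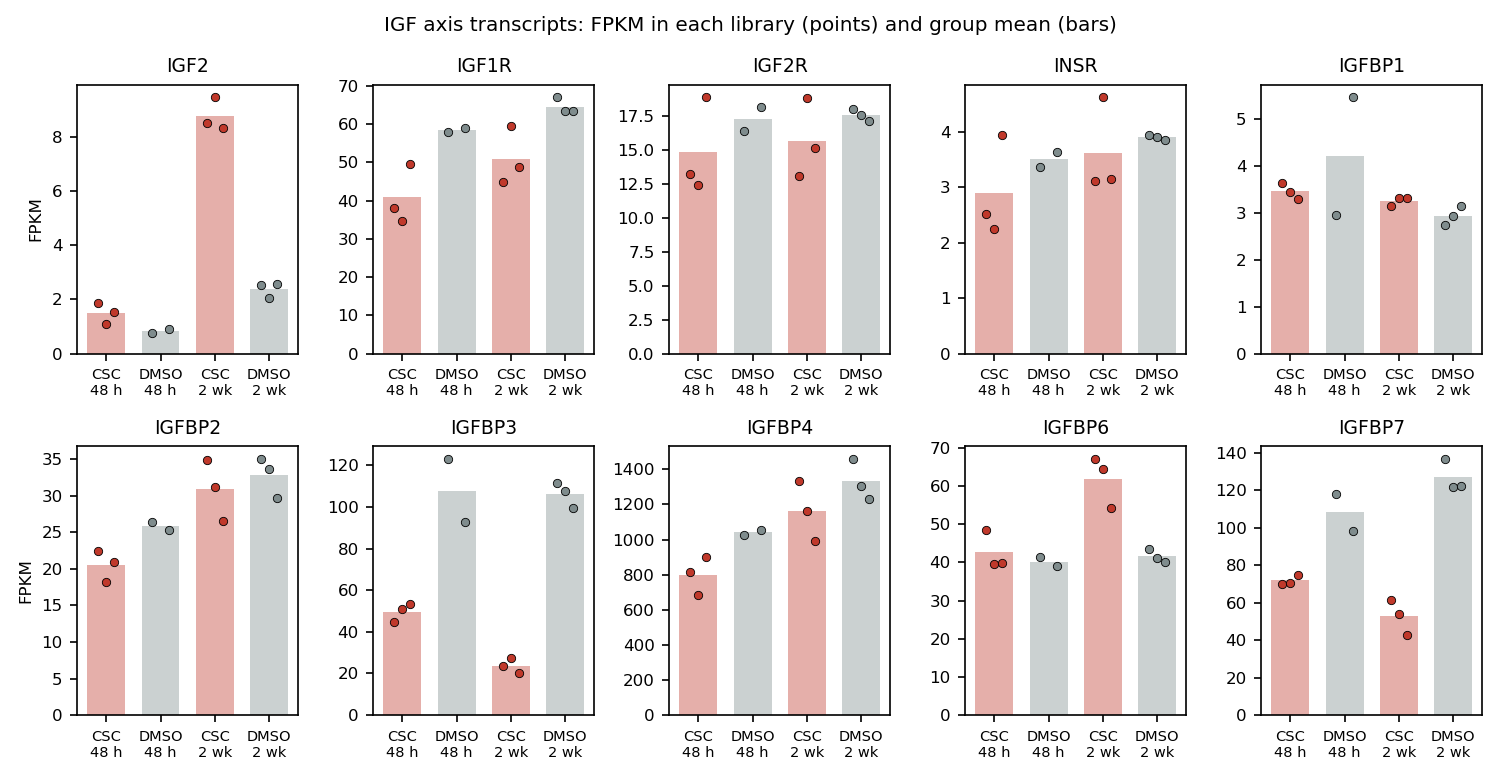
FPKM of the 10 genes in each library (points) and the group mean (bars), with linear axes that start at 0 and differ between panels. In the CSC 2 weeks libraries IGF2 lay between 8.35 and 9.47 FPKM, above every other library, and IGFBP3 between 20.2 and 27.2 FPKM, below every other library.

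Promoters of 7 of the 10 genes matched the RefSeq table of start sites, and those of IGFBP3 and IGFBP6 are shown because these 2 binding proteins were called in opposite directions at 2 weeks. Each line holds the 250 bases before the start site on the gene's own strand, 5′ to 3′, in GRCh38.p14 coordinates from RefSeq: IGFBP3 at chr7:45921273-45921522 on the minus strand and IGFBP6 at chr12:53097417-53097666 on the plus strand. Capitals mark GCGTG, the core of sites that the aryl hydrocarbon receptor is known to bind with ARNT, or its reverse complement CACGC, and the GC box GGGCGG or its reverse complement CCGCCC.
IGFBP3: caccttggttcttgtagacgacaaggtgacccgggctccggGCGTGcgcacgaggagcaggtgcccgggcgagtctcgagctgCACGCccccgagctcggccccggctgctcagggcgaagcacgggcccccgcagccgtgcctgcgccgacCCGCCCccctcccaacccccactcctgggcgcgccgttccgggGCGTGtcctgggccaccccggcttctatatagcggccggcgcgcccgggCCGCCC
IGFBP6: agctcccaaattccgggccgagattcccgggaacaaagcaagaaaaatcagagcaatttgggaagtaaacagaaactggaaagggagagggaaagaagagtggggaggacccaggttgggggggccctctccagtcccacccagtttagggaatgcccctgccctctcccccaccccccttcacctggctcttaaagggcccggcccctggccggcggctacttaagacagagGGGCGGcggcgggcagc
The IGFBP3 window held 3 GCGTG matches on either strand and 2 GC boxes, with 76.0% G or C. The IGFBP6 window held 0 GCGTG matches and 1 GC box, with 61.2% G or C. Of 35116 windows of the same length in the table, 32.2% held GCGTG and 42.6% the GC box. Both marked words are rich in G or C, and those windows were not matched for their share of G or C. The windows of IGF1R held 4 GCGTG matches, those of IGF2R, INSR and IGFBP4 held 0, and 1 of the 3 IGFBP2 windows held 1. A match describes the letters in a window and is no measure of binding.

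The ligand IGF2 (hg19 chromosome 11, positions 2150347 to 2170833, minus strand, protein coding, 3 start sites in the files) is an imprinted gene that most adult tissues express little of. At 2 weeks it had 8.52, 9.47 and 8.35 FPKM in CSC, against 2.52, 2.06 and 2.58 FPKM in DMSO. The 48 hours levels were 1.86, 1.07 and 1.54 FPKM in CSC, against 0.749 and 0.922 FPKM in DMSO. The groups did not overlap at either duration, and the CSC 2 weeks libraries stood above all others. The log2 change was 1.69 ± 0.15 (SE) at 2 weeks, and 0.56 ± 0.17 at 48 hours with an adjusted p of 0.282, which did not pass. At such low levels its size depends on the constant added to FPKM: the 48 hours change was 0.74 with 0.1 added and 0.43 with 1 added.

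IGF2 was also higher after the longer culture in DMSO alone, with 2.39 ± 0.28 FPKM at 2 weeks (SD, n = 3) and 0.836 ± 0.12 FPKM at 48 hours (SD, n = 2). It rose by 1.11 ± 0.17 on the log2 scale (limma, adjusted p = 0.0121). That made it the 1 member called higher with time in DMSO, with 0 lower, where 0.656% of all tested genes were called higher and 0.112% lower. The call was lost without DMSO 48 hours replicate 2 (adjusted p = 0.107), without its replicate 3 (0.0611), and without DMSO 2 weeks replicate 1 (0.0662) or replicate 3 (0.0610). In CSC the log2 change with time was 2.24 ± 0.15. Over the 22 alternatives the IGF2 change with time lay between 0.88 and 1.41 in DMSO and between 1.98 and 2.51 in CSC.

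The IGF2 locus in the files overlaps the readthrough transcript INS-IGF2 on the same strand and the antisense RNA IGF2-AS. INS-IGF2 did not exceed 0.105 FPKM and IGF2-AS did not exceed 0.186 FPKM in any library. The strand setting of the counting is not given in the sources used here, so reads from these overlapping transcripts cannot be told apart. The other ligands were near absent: IGF1 reached at most 0.307 FPKM, and INS, which encodes insulin, was listed at 0 in all 11 libraries.

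IGF1R (chromosome 15, 99192761 to 99507759, plus strand), the main signalling receptor for IGFs, had the highest level of the 3 receptors in every group. At 48 hours it had 38.1, 34.8 and 49.6 FPKM in CSC, against 57.9 and 59.0 FPKM in DMSO. By 2 weeks the levels were 44.9, 59.5 and 48.7 FPKM in CSC, against 67.1, 63.5 and 63.3 FPKM in DMSO. All CSC libraries lay below all DMSO libraries of the same duration. The log2 change was -0.53 ± 0.16 at 48 hours (limma, adjusted p = 0.257) and -0.35 ± 0.14 at 2 weeks (adjusted p = 0.155), so neither passed. Without CSC 48 hours replicate 3 the 48 hours change was -0.67 (adjusted p = 0.0468), and without CSC 2 weeks replicate 2 the 2 weeks change was -0.46 (adjusted p = 0.0457). At each duration this was the 1 of 22 alternatives that passed, with adjusted p-values of up to 0.725 at 48 hours and 0.433 at 2 weeks. Leaving out these libraries also raised the calls over all genes, to 22 higher and 76 lower at 48 hours and 1310 higher and 534 lower at 2 weeks.

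IGF2R (chromosome 6, 160390131 to 160527583, plus strand), which clears IGF2, had 13.3, 12.4 and 18.9 FPKM in CSC at 48 hours, against 16.4 and 18.2 FPKM in DMSO. By 2 weeks the levels were 13.1, 18.9 and 15.1 FPKM in CSC, against 18.0, 17.6 and 17.2 FPKM in DMSO. At each duration 1 CSC library lay above all DMSO libraries and the other CSC libraries lay below them. The log2 change was -0.23 (adjusted p = 0.821) at 48 hours and -0.18 (0.515) at 2 weeks by limma.

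INSR (chromosome 19, 7112266 to 7294011, minus strand), the insulin receptor, had 2.51, 2.24 and 3.94 FPKM in CSC at 48 hours, against 3.37 and 3.63 FPKM in DMSO. At 2 weeks it had 3.11, 4.62 and 3.14 FPKM in CSC, against 3.94, 3.91 and 3.85 FPKM in DMSO. The pattern was that of IGF2R, with overlapping groups, and the log2 change was -0.27 (limma, adjusted p = 0.821) at 48 hours and -0.11 (0.731) at 2 weeks. The ratio of IGF1R to INSR levels was 14.3 ± 1.34 in CSC and 16.6 ± 0.395 in DMSO at 2 weeks (SD, n = 3 each).

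**Figure D2:**
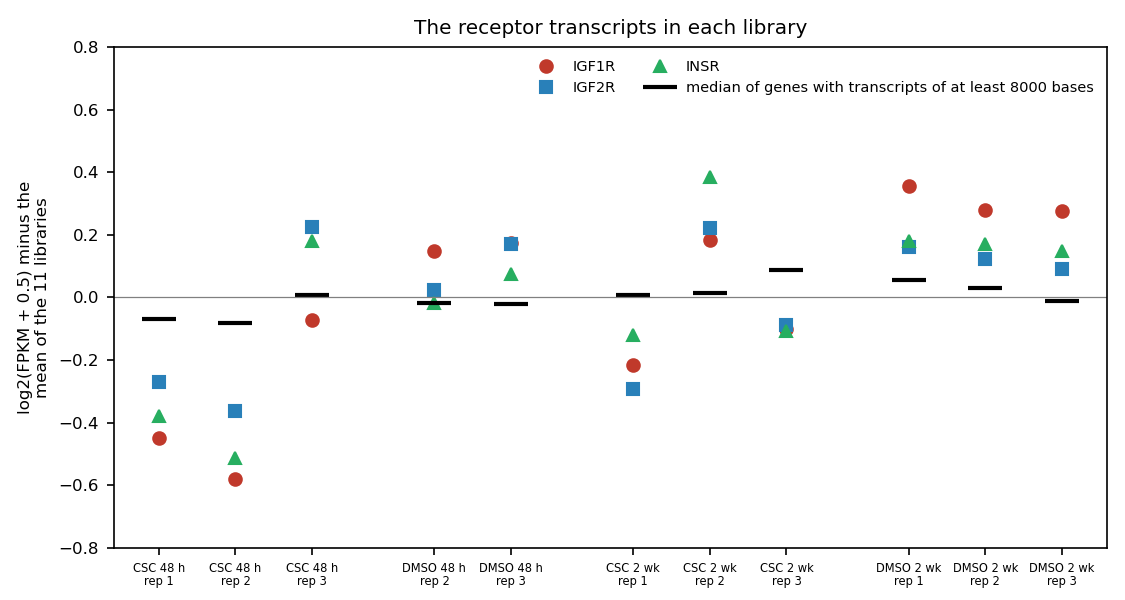
Deviation of the 3 receptor transcripts from their mean over the 11 libraries (log2 of FPKM + 0.5), with the median of the 1140 genes whose transcripts have at least 8000 bases (black dashes). CSC 48 hours replicate 3 and CSC 2 weeks replicate 2 are the highest library of their group for each receptor. The black dashes stay within 0.09 of 0, and genes with short transcripts are not drawn.

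The receptors moved together between libraries of the same group. After the group means were removed, the log2 levels correlated at r = 0.98 for IGF1R with IGF2R, 0.98 for IGF1R with INSR and 0.97 for IGF2R with INSR over the 11 libraries, a description in which all points share their library and its depth. CSC 48 hours replicate 3 and CSC 2 weeks replicate 2 were the high libraries of their groups for all 3 receptors. The receptors have long transcripts, the longest of 12235 bases for IGF1R, 14231 for IGF2R and 9463 for INSR. The median of the 1140 genes with transcripts of at least 8000 bases lay 0.01 above its mean over libraries in CSC 48 hours replicate 3 and 0.01 above it in CSC 2 weeks replicate 2, where the receptors deviated by -0.07 to 0.22 and by 0.18 to 0.39. The median of the 1918 genes with transcripts under 2000 bases was the lowest of its group in both libraries. It was -0.17 in CSC 48 hours replicate 3, against -0.04 and -0.10 in replicates 1 and 2. In CSC 2 weeks replicate 2 it was 0.04, against 0.41 and 0.18 in replicates 1 and 3. The parts of the library and of transcript length in the receptor values were not tested.

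IGFBP3 (chromosome 7, 45951844 to 45960871, minus strand), the main carrier of IGFs in blood, had the widest gap between CSC and DMSO among the binding proteins on the log2 scale. At 2 weeks it had 23.7, 27.2 and 20.2 FPKM in CSC, against 112, 108 and 99.5 FPKM in DMSO. The 48 hours levels were 44.5, 51.0 and 53.4 FPKM in CSC, against 123 and 92.6 FPKM in DMSO. The groups were apart at both durations. IGFBP3 fell by 2.15 on the log2 scale at 2 weeks (SE 0.14, limma, adjusted p = 6.93e-06) and by 1.10 at 48 hours (SE 0.16, adjusted p = 0.0110). The 48 hours call was lost without DMSO 48 hours replicate 2 (log2 change -0.90, adjusted p = 0.119) and in a fit of the 48 hours libraries alone (adjusted p = 0.176).

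IGFBP7 (chromosome 4, 57897237 to 57976551, minus strand), a matrix-associated relative that binds IGFs weakly, was likewise lower in CSC than in DMSO at both durations. It had 61.3, 54.1 and 42.5 FPKM in CSC at 2 weeks, against 137, 122 and 122 FPKM in DMSO. Its 48 hours levels were 70.2, 70.7 and 75.0 FPKM in CSC, against 118 and 98.3 FPKM in DMSO. The groups did not overlap. IGFBP7 fell by 1.27 on the log2 scale at 2 weeks (SE 0.14, limma, adjusted p = 2.52e-04), and its 48 hours change of -0.58 ± 0.15 did not pass (adjusted p = 0.171).

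IGFBP6 (chromosome 12, 53491436 to 53496128, plus strand), which prefers IGF2 over IGF1 as a ligand, went the other way at 2 weeks. It had 67.2, 64.4 and 54.3 FPKM in CSC at 2 weeks, against 43.5, 41.3 and 40.1 FPKM in DMSO. At 48 hours it had 48.5, 39.6 and 39.8 FPKM in CSC, against 41.4 and 39.0 FPKM in DMSO, with overlapping groups. IGFBP6 rose by 0.56 ± 0.12 on the log2 scale at 2 weeks (limma, adjusted p = 0.0151), while the 48 hours change was 0.08 (adjusted p = 0.946).

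The IGFBP6 call at 2 weeks moved with transcript length and with single libraries. Its longest transcript has 1177 bases, and the 1918 genes with transcripts under 2000 bases had median deviations of 0.41, 0.04 and 0.18 in the CSC 2 weeks libraries, against 0.04, 0.01 and -0.12 in the DMSO 2 weeks libraries. With the trend over transcript length removed from each library, an alternative added after seeing the data, the IGFBP6 change was 0.31 (adjusted p = 0.105). Leaving out CSC 2 weeks replicate 1 gave an adjusted p of 0.0609, and leaving out DMSO 2 weeks replicate 1, 2 or 3 gave 0.0503, 0.0649 and 0.0721.

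**Figure D3:**
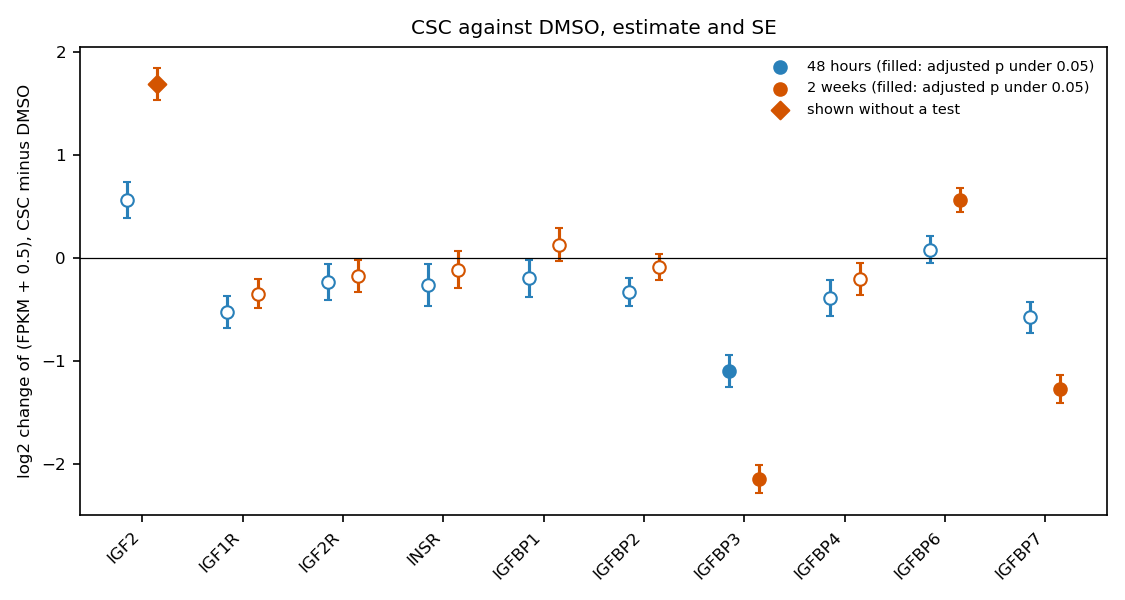
log2 change of FPKM + 0.5, CSC minus DMSO, with its standard error (bars) for the 10 genes at 48 hours (blue) and 2 weeks (orange). Filled circles passed an adjusted p of 0.05, and the diamond is IGF2 at 2 weeks, given without a test. IGFBP3 lies at -1.10 and -2.15, IGFBP7 at -0.58 and -1.27, and the receptors between -0.53 and -0.11.

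IGFBP4 (chromosome 17, 38599676 to 38613982, plus strand), which restrains IGFs until PAPPA cleaves it, was by far the highest of the 10 levels in each group. It had 813, 686 and 898 FPKM in CSC at 48 hours, against 1027 and 1054 FPKM in DMSO, and 1332, 1164 and 990 FPKM in CSC at 2 weeks, against 1460, 1307 and 1229 FPKM in DMSO. CSC libraries lay below DMSO libraries at 48 hours and overlapped with them at 2 weeks. The log2 change was -0.39 at 48 hours (limma, adjusted p = 0.585) and -0.20 at 2 weeks (adjusted p = 0.444).

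IGFBP2 (chromosome 2, 217498127 to 217529158, plus strand), a binding protein often raised in tumours, had 22.5, 18.2 and 20.9 FPKM in CSC at 48 hours, against 26.4 and 25.3 FPKM in DMSO. At 2 weeks it had 35.0, 31.2 and 26.6 FPKM in CSC, against 35.1, 33.7 and 29.7 FPKM in DMSO. The order of groups was that of IGFBP4, apart at 48 hours and overlapping at 2 weeks, and the log2 changes of -0.33 (limma, adjusted p = 0.517) and -0.09 (0.682) did not pass. IGFBP2 and IGFBP4 levels correlated at r = 0.88 over the 11 libraries once group means were removed, a description in which the points share their library.

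IGFBP1 (chromosome 7, 45927959 to 45933267, plus strand), which liver cells release when insulin is low, was the lowest of the 6 binding proteins chosen. It had 3.64, 3.45 and 3.30 FPKM in CSC at 48 hours, against 2.97 and 5.47 FPKM in DMSO, where the 2 DMSO libraries lay on either side of the CSC libraries. At 2 weeks it had 3.16, 3.31 and 3.31 FPKM in CSC, against 2.74, 2.94 and 3.15 FPKM in DMSO, narrowly apart. The log2 change was -0.20 at 48 hours (limma, adjusted p = 0.862) and 0.13 at 2 weeks (adjusted p = 0.659). IGFBP5 stayed at or below 0.172 FPKM in all libraries.

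The make-up of the binding protein transcripts, as shares of the summed FPKM of the 6 genes, differed between groups. At 2 weeks the sum was 1334 ± 193 FPKM in CSC and 1643 ± 135 FPKM in DMSO (SD, n = 3 each). IGFBP4 made up 87.1% ± 0.453 of it in CSC and 81.1% ± 0.470 in DMSO (SD, n = 3 each). All 11 IGFBP4 values lie above their own deposited upper bound, as do 6 values each of IGFBP6 and IGFBP7, and the SDs of the shares do not include this. IGFBP3 made up 1.79% ± 0.235 in CSC and 6.48% ± 0.215 in DMSO, and IGFBP7 3.93% ± 0.164 in CSC and 7.74% ± 0.263 in DMSO. IGFBP6 made up 4.66% ± 0.215 in CSC and 2.54% ± 0.104 in DMSO. For each of these 4 genes the gap between the 2 weeks groups was larger than the spread within them, and no test was made of shares. Shares of the same sum depend on each other. IGFBP4 had the higher share in CSC although its mean level there was lower, at 1162 FPKM against 1332 FPKM in DMSO, with overlapping libraries.

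At 48 hours the sum was 987 ± 112 FPKM in CSC (SD, n = 3) and 1327 ± 17.7 FPKM in DMSO (SD, n = 2). IGFBP4 made up 80.8% in CSC and 78.4% in DMSO, with overlapping libraries. IGFBP3 made up 4.44, 5.87 and 4.90% in CSC, against 9.20 and 7.05% in DMSO. IGFBP7 made up 6.88 to 8.14% in CSC, against 8.81 and 7.48% in DMSO, with overlapping libraries. IGFBP6 made up 4.84, 4.55 and 3.65% in CSC, against 3.09 and 2.96% in DMSO, although its level overlapped between these groups.

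**Figure D4:**
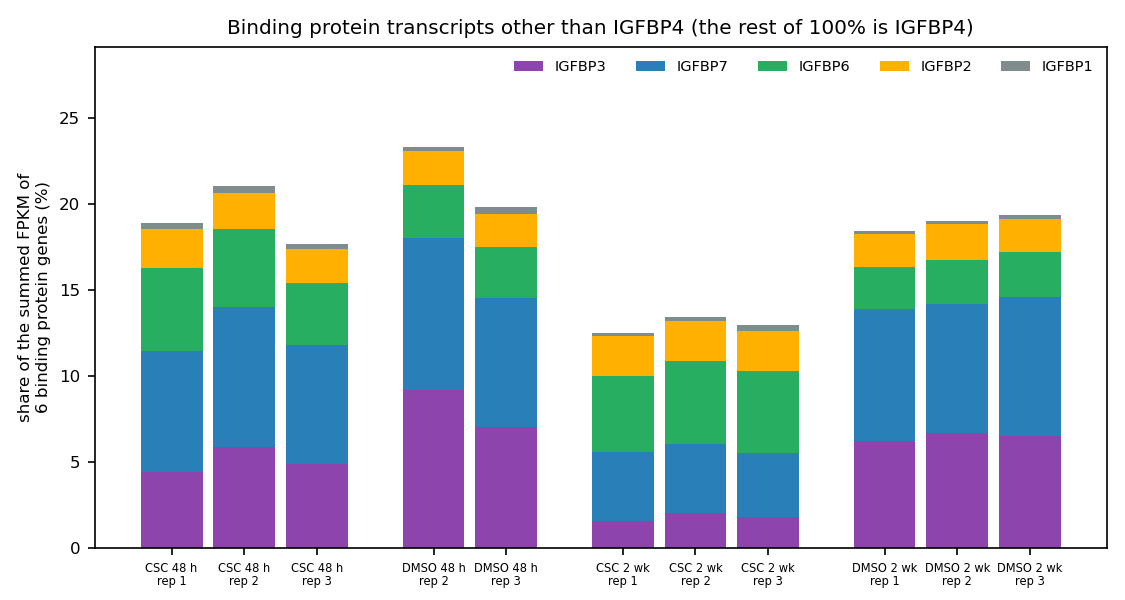
Shares of the summed FPKM of the 6 binding protein genes in each library, stacked for the 5 genes other than IGFBP4, which holds the rest. The 5 genes together take 12.5 to 13.4% in CSC 2 weeks, against 18.4 to 19.4% in DMSO 2 weeks, with the IGFBP3 and IGFBP7 bands narrower and the IGFBP6 band wider in CSC.

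By level per length the order of the 10 genes in DMSO at 2 weeks was IGFBP4, IGFBP7, IGFBP3, IGF1R, IGFBP6, IGFBP2, IGF2R, INSR, IGFBP1 and IGF2, and no neighbours in it had overlapping ranges. In CSC at 2 weeks IGFBP6 stood next after IGFBP4, followed by IGFBP7, IGF1R, IGFBP2, IGFBP3, IGF2R, IGF2, INSR and IGFBP1. There the ranges of IGFBP6 and IGFBP7, of IGFBP7 and IGF1R, of IGFBP2 and IGFBP3, and of INSR and IGFBP1 overlapped. The ratio of IGFBP6 to IGFBP3 levels was 2.63 ± 0.242 in CSC and 0.392 ± 0.0102 in DMSO at 2 weeks (SD, n = 3 each). IGF2 was last of the 10 in both 48 hours groups and in DMSO at 2 weeks, and eighth in CSC at 2 weeks.

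In the order at 48 hours, CSC libraries had IGFBP4, IGFBP7, IGFBP3, IGFBP6, IGF1R, IGFBP2, IGF2R, IGFBP1, INSR and IGF2, with overlapping ranges for IGFBP3 and IGFBP6, IGFBP6 and IGF1R, IGFBP2 and IGF2R, and IGFBP1 and INSR. DMSO libraries at 48 hours differed from that order in having IGF1R ahead of IGFBP6, and there the ranges of IGFBP7 and IGFBP3 and of IGFBP1 and INSR overlapped.

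Whether the response to CSC changed with its duration was tested as the difference between the 2 weeks and the 48 hours changes. By this test, IGF2 left aside, 0 members were called higher and 0 lower, where 0.008% of all tested genes were called higher and 0.032% lower. Of all 10 members, IGF2 included, 4 had an unadjusted p under 0.05, as had 876 of the 12506 genes. The difference was -1.05 ± 0.21 for IGFBP3 (limma, adjusted p = 0.277), -0.70 for IGFBP7 (0.567) and 0.49 for IGFBP6 (0.647). For IGF2 it was 1.13 ± 0.23, given without a test because it holds the 2 weeks difference known beforehand. The larger changes of these 4 genes at 2 weeks were therefore not shown to differ from those at 48 hours.

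Within CSC, again with IGF2 left aside, 3 members were called higher and 2 lower at 2 weeks than at 48 hours, where 12.3% of all tested genes were called higher and 1.38% lower. The genes called higher were IGFBP2 (0.58, limma, adjusted p = 0.0192), IGFBP4 (0.54, 0.0434) and IGFBP6 (0.54, 0.0195). Those called lower were IGFBP3 (-1.06, 0.00285) and IGFBP7 (-0.46, 0.0434). The 3 rises did not pass under median-of-ratios scaling, a common sum or quantile normalization, and under the last the IGFBP4 change turned to -0.0638. The median log2 change of all tested genes in this comparison was 0.19, and these settings brought that median to 0.02, -0.09 and 0.01. The split of calls over all genes moved with it, at 1536 higher and 172 lower in the values given and 84 higher and 458 lower with a common sum. Without CSC 48 hours replicate 2 the adjusted p was 0.0598 for IGFBP2 and 0.0600 for IGFBP6, and without CSC 2 weeks replicate 1 it was 0.0702 for both. The IGFBP4 call held without CSC 48 hours replicate 3 or CSC 2 weeks replicate 2 and was lost without any 1 of the other 9 libraries (adjusted p of 0.0534 to 0.130). The IGFBP7 call held without CSC 2 weeks replicate 2 and was lost without any 1 of the other 10 (0.0526 to 0.135). At 2 weeks, CSC against DMSO, it was 376 higher and 300 lower, and 264 higher and 486 lower with a common sum, with the calls of IGFBP3, IGFBP6 and IGFBP7 kept.

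Proteases and their inhibitors decide how much IGF the binding proteins release. Of 8 such genes 6 were tested. STC2 left aside, 0 were called higher by limma and 1 lower at 2 weeks, where 3.01% of all tested genes were called higher and 2.4% lower. At 48 hours 0 of the 6 were called. The median log2 change of all 6, STC2 included, was -0.22 at 2 weeks, against 0.09 over all genes. STC1 and STC2 encode stanniocalcins, secreted inhibitors of PAPPA. STC1 had 1.17, 1.68 and 1.45 FPKM in CSC at 2 weeks, against 4.46, 4.60 and 3.38 FPKM in DMSO, and fell by 1.26 on the log2 scale (SE 0.18, limma, adjusted p = 0.00160). STC2 had 9.01, 10.2 and 11.4 FPKM in CSC at 2 weeks, against 3.01, 2.84 and 2.12 FPKM in DMSO, a log2 change of 1.77 ± 0.45 that was known beforehand and is given without a test. Over the 22 alternatives this change lay between 1.62 and 1.91. At 48 hours STC2 had 7.27, 10.1 and 42.0 FPKM in CSC, against 5.38 and 3.80 FPKM in DMSO, where the replicate at 42.0 is the one with high receptor levels. The paralogs thus lay on opposite sides of DMSO at 2 weeks, with no overlap for either.

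Among the proteases, PRSS23, a secreted serine protease, had 114, 138 and 110 FPKM in CSC at 2 weeks, against 161, 156 and 148 FPKM in DMSO (log2 change -0.36 ± 0.11, limma, adjusted p = 0.0788). MMP7, a matrix metalloproteinase, had 23.9, 30.0 and 22.6 FPKM in CSC at 2 weeks, against 14.9, 17.8 and 12.5 FPKM in DMSO (0.74 ± 0.30, adjusted p = 0.155). The groups were apart for both genes and neither change passed. PAPPA, the protease that cleaves IGFBP4 and was singled out after its values were seen, had 21.1, 29.4 and 25.8 FPKM in CSC at 2 weeks, against 36.0, 37.2 and 35.3 FPKM in DMSO. At 48 hours it had 17.2, 16.1 and 39.1 FPKM in CSC, against 28.4 and 36.4 FPKM in DMSO. It did not pass at 2 weeks (log2 change -0.51, limma, adjusted p = 0.247) or at 48 hours (-0.53, 0.707), and its highest CSC libraries were the same replicates as for the receptors.

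Of 13 neighbours of IGF2 and regulators of its transcription and RNA, 9 were tested, and 2 were called higher and 0 lower at 2 weeks. Over all tested genes 3.01% were called higher and 2.4% lower. The list had a median log2 change of 0.06, against 0.09 over all genes. HMGA2, a chromatin protein known to promote IGF2 transcription, had 15.6, 14.2 and 17.6 FPKM in CSC at 2 weeks, against 4.76, 5.35 and 4.86 FPKM in DMSO, and rose by 1.57 ± 0.18 on the log2 scale (limma, adjusted p = 3.94e-04). At 48 hours it had 10.6, 14.5 and 7.61 FPKM in CSC, against 6.75 and 7.39 FPKM in DMSO, a change of 0.55 that did not pass (adjusted p = 0.402) unless CSC 48 hours replicate 3 was left out (0.77, adjusted p = 0.0409). IGF2BP2, which binds IGF2 messenger RNA, had 8.13, 8.38 and 9.84 FPKM in CSC at 2 weeks, against 4.66, 4.66 and 4.63 FPKM in DMSO, and rose by 0.85 ± 0.11 (limma, adjusted p = 0.00109). For both genes all CSC libraries lay well above all DMSO libraries at 2 weeks. With time in DMSO the log2 change was -0.46 for HMGA2 (limma, adjusted p = 0.350) and -0.31 for IGF2BP2 (0.331). With time in CSC it was 0.56 for HMGA2 (0.0538) and 0.30 for IGF2BP2 (0.0854), so none of these passed. A link of these genes to the IGF2 level was not tested.

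H19, the noncoding RNA that is imprinted opposite to IGF2 at the same locus, had 2.13, 1.68 and 1.30 FPKM in CSC at 2 weeks, against 3.33, 3.27 and 2.27 FPKM in DMSO. The groups did not overlap, and the log2 change of -0.65 ± 0.25 did not pass (limma, adjusted p = 0.134). Of 21 alternatives 1 passed, a fit of the 2 weeks libraries alone (adjusted p = 0.0449), and the others reached up to 0.354. The 48 hours levels of H19 were 0.315, 0.245 and 0.760 FPKM in CSC, against 0.644 and 1.28 FPKM in DMSO, with overlapping groups. The 48 hours change was -0.64 (limma, adjusted p = 0.550). With time H19 rose by 1.261 on the log2 scale in DMSO, which did not pass (limma, adjusted p = 0.0627). In CSC it rose by 1.251, which passed (adjusted p = 0.0166). H19 was thus higher after the longer culture in both treatments, as IGF2 was.

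Downstream of the receptors, 27 of 28 adaptor and kinase genes were tested, and 1 was called higher and 0 lower at 2 weeks, with a median log2 change of 0.11. That share is close to the 3.01% called higher over all tested genes, and nothing is read from it for the list. The call was MAPK3, which encodes the kinase ERK1, with 11.7, 9.43 and 10.6 FPKM in CSC, against 7.23, 7.83 and 7.42 FPKM in DMSO (log2 change 0.47 ± 0.12, limma, adjusted p = 0.0395). It passed in 8 of 22 alternatives, and did not under median-of-ratios scaling (adjusted p = 0.0722). The kinase AKT1, which carries IGF signals from the membrane, averaged 39.1 ± 8.05 FPKM in CSC and 29.4 ± 2.28 FPKM in DMSO at 2 weeks (SD, n = 3 each), a log2 change of 0.39 that did not pass (limma, adjusted p = 0.153). Of 14 inhibitors of receptor signalling, all tested, 2 were called higher and 0 lower at 2 weeks, with a median of 0.23. Over all tested genes the shares were 3.01% higher and 2.4% lower. SOCS3, a feedback inhibitor of cytokine and insulin receptors, had 11.2, 8.63 and 12.7 FPKM in CSC, against 5.67, 5.45 and 4.85 FPKM in DMSO, and rose by 0.94 ± 0.22 (limma, adjusted p = 0.0265), passing in 16 of 22 alternatives. GNB2L1, the scaffold RACK1 that binds IGF1R, had 719, 556 and 618 FPKM in CSC, against 463, 455 and 424 FPKM in DMSO (0.49 ± 0.13, adjusted p = 0.0445), and passed in 9 of 21. The alternative with the length trend removed did not cover GNB2L1, and under quantile normalization its change was 0.17 (limma, adjusted p = 0.125). The MAPK3 and SOCS3 calls were lost without CSC 2 weeks replicate 1 or 3 (adjusted p = 0.153 and 0.125 for MAPK3, 0.0935 and 0.121 for SOCS3), and the GNB2L1 call likewise (0.122 and 0.128). Without any 1 of the DMSO 2 weeks libraries they were lost as well, with adjusted p-values of 0.0960 to 0.133 for MAPK3, 0.0700 to 0.111 for SOCS3 and 0.110 to 0.166 for GNB2L1. The spread that all 11 libraries share also counted: leaving out either DMSO 48 hours library or CSC 48 hours replicate 1 ended the MAPK3 and GNB2L1 calls, with adjusted p-values of up to 0.0563 and 0.0666, and leaving out CSC 48 hours replicate 2 ended that of GNB2L1 (0.0570).

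Of 16 FOXO factors and genes that they are known to induce or repress, 15 were in the files and 10 were tested. By limma 0 were called in either direction at either duration. An unadjusted p under 0.05 was found for 0 at 2 weeks, where 3075 of the 12506 genes had one, and for 2 at 48 hours. The list's FOXO1, a transcription factor that AKT keeps out of the nucleus, averaged 1.78 ± 0.0919 FPKM in CSC and 2.10 ± 0.0985 FPKM in DMSO at 2 weeks (SD, n = 3 each), a log2 change of -0.19 (limma, adjusted p = 0.353). The list's median log2 change was 0.12 at 2 weeks and -0.08 at 48 hours. Because the list mixes genes that FOXO factors induce and repress, its median is no measure of IGF signalling. Of 9 other ligands and binding proteins 3 were tested and 0 called by limma at either duration, with 0 at an unadjusted p under 0.05 and a median of -0.07 at both. At 48 hours 0 genes of the protease, IGF2 regulator, signalling and inhibitor lists were called by limma, with 4, 2, 0 and 1 at an unadjusted p under 0.05, in that order, and medians of -0.35, 0.02, -0.02 and 0.10.

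**Figure D5:**
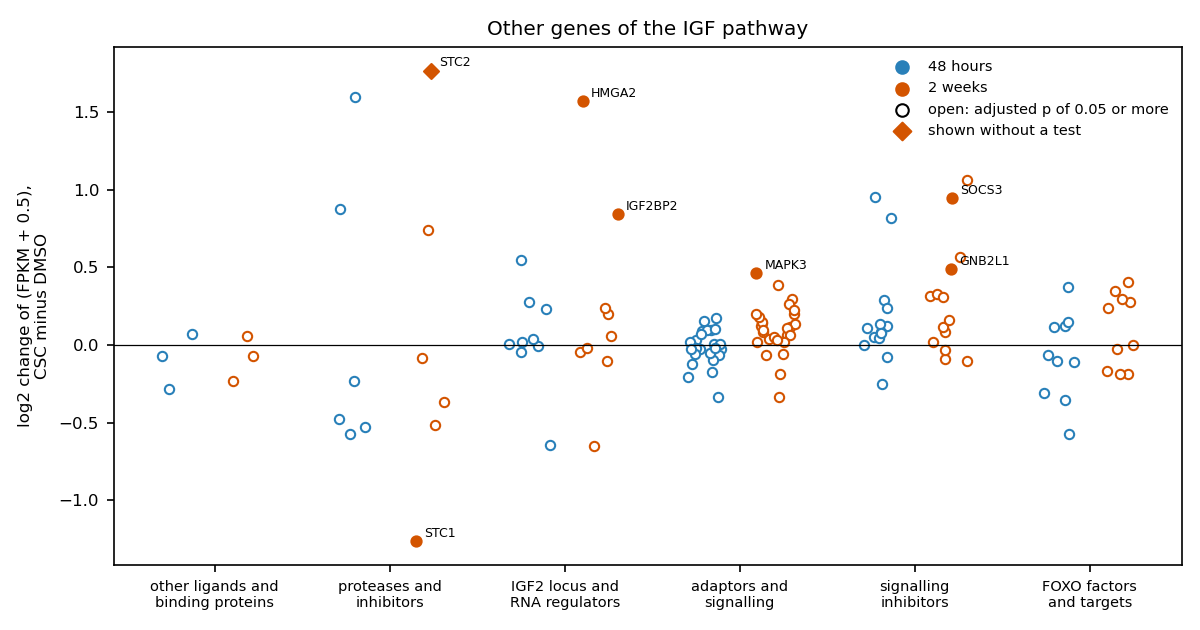
log2 change of FPKM + 0.5, CSC minus DMSO, of every tested gene in 6 lists of IGF pathway genes at 48 hours (blue) and 2 weeks (orange). Filled points passed an adjusted p of 0.05 and carry their symbol, and the diamond is STC2, given without a test. The names stand only in the 2 weeks columns, with HMGA2 at 1.57 and STC1 at -1.26.

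The genes with the pattern most like that of IGF2, by Pearson correlation of log2 levels over the 11 libraries, were HPGD (r = 0.96), RAB5B (0.96), RBPMS (0.96), GNG2 (0.95) and YAP1 (0.95). Those most like IGFBP3 were LIMCH1 (r = 0.98), ANTXR1 (0.97), IGFBP7 (0.97), SMAD2 (0.96) and IL11 (0.96). LIMCH1 averaged 14.2 FPKM in CSC and 33.0 FPKM in DMSO at 2 weeks, and HPGD 67.4 FPKM in CSC and 40.6 FPKM in DMSO. These correlations describe the choice of the most similar genes among all tested, and the libraries fall into 4 groups that set them.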

How the data were processed

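Per the labels' protocols, A549 RNA was depleted of ribosomal RNA, sequenced on an Illumina HiSeq2000 and aligned to hg19 with TopHat2 2.0.9, and the submitters' processing notes also list CASAVA 1.7.1a5. The authors deposited FPKM per gene with a lower and an upper bound. For the program that made them, its annotation, scaling and strand setting, nothing is given in the sources used here, and 23 of the 110 member values lay above their own upper bound, so the bounds were not used as errors. A molarity (20 µM in the labels) has no defined meaning for a mixture such as CSC. FPKM of symbols at several loci were summed (548 symbols, none a member), and 1 gene marked as failed was left out. Groups came from the labels. Differences were tested with limma 3.58.1 (R 4.3.3, moderated with a trend) on log2(FPKM + 0.5) of genes with at least 1 FPKM in at least 2 libraries, all 11 libraries in 1 fit without a replicate block, with Benjamini-Hochberg adjustment over 12506 genes. The fit was tested on simulated data. Named were the 10 members, pathway genes drawn from the 4 of each list that ranked first by p in a CSC comparison (PAPPA apart), and the 5 genes most like IGF2 and IGFBP3. The members and lists were chosen with earlier results of these data known. Alternatives numbered 22.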

Additional observations from a re-analysis of the deposited data

How the results depend on the processing

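At 2 weeks the lower IGFBP3 and IGFBP7 levels in CSC kept direction and threshold in all 22 alternatives. The 48 hours IGFBP3 call was kept in 20. Counts of members called at 48 hours ranged from 0 to 2 when 1 library was left out, against 1, and fell to 0 with only the libraries compared. With time in DMSO the count was 0 without a filter and 0 to 1 with 1 library left out. With time in CSC it was 3 under median-of-ratios scaling, under a common sum, under quantile normalization and with the length trend removed, 2 with only the libraries compared, and 2 to 6 with 1 library left out, against 6, counting IGF2. Over all genes the calls in CSC against DMSO numbered 13 higher and 23 lower at 48 hours, with 5 to 22 and 6 to 76 when 1 library was left out and 2 and 1 with only the libraries compared. At 2 weeks they numbered 376 and 300, with 73 to 1310 and 132 to 534 when 1 library was left out, 184 and 229 without a filter, and 595 and 350 with the replicate block. Under quantile normalization the IGFBP4 change with time in CSC, called at 0.54 in the main fit, turned to -0.0638 (limma, adjusted p = 0.852). The other turns of sign were in changes that passed no test, in the main fit or after the turn. Leaving out 1 library in turn gave -0.59 to 0.19 for IGFBP1 and -0.0169 to 0.128 for IGFBP6 at 48 hours, -0.181 to 0.0124 for IGFBP2 at 2 weeks, and -0.21 to 0.20 for IGFBP3 with time in DMSO. With the length trend removed IGFBP1 at 2 weeks was -0.0790. The IGFBP4 difference between durations was -3.85e-04 with a common sum and -0.144 when quantiles were equalized. For IGFBP6 with time in DMSO the change was -0.0432 under median-of-ratios scaling, -0.0683 with a common sum, -0.109 with equal quantiles and -0.0463 with the length trend removed. The cause of these turns was not tested. A fit with the replicate block changed no count of member calls and gave 0.00229 for IGFBP3 and -0.0126 for IGFBP6 with time in DMSO. Deviations of libraries with the same replicate number correlated at r between -0.20 and 0.31, over 0.1 in 5 of 15 pairs, short of every pair. Between CSC and DMSO at 48 hours r was 0.21 for replicate 2 and 0.22 for replicate 3. Of 18 best matches, each among 3 libraries, 10 were the own number. These values do not settle whether the numbers pair libraries, and the main fit was made without pairing. Without read numbers, the precision of low levels such as IGF2 in DMSO at 48 hours, with 2 libraries, is unknown.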
